A study of Mus musculus with 12 samples.

Results

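The genes described here are 8 of the 49489 in the total RNA table: the long noncoding RNAs Gm47106, Gm13056, Gm35419 and Gm50401, the processed pseudogenes Gm49057, Gm8489 and Gm11991, and AC122537.1, an RNA of the class misc_RNA. These classes are those of the authors' deposited table. The 8 were chosen by their total RNA counts, which were far higher in the 3 sense libraries than in the 3 antisense libraries, so the sense and antisense values given for them are a description and carry no test. Sense and antisense libraries came from a pulldown directed at Gas5, made with primary hippocampal neurons of P0 mice kept in culture to DIV 16 (16 days in vitro), and each group had 3 total RNA libraries. All libraries have the same kind of culture and the same target of the pulldown. The labels give no genotype or treatment, do not say whether sense and antisense name a probe or a bait or which was the control, and give no separate cultures or animals for the 3 replicates of a group. Any p-value below is therefore set against a spread between libraries that may be technical.

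A long noncoding RNA is a transcript that is not read into a protein, and most of those with a Gm number have no assigned function. A processed pseudogene is a copy of a spliced messenger RNA that was reinserted into the genome, so its sequence resembles that of a parent gene and reads can be shared between the copies. Misc_RNA is a class of annotation for noncoding RNAs that belong to no other named class. Gas5 is itself a long noncoding RNA, which carries small nucleolar RNAs in its introns and is known to bind the glucocorticoid receptor. A pulldown recovers an RNA with a complementary or bait strand, and what is sequenced holds that RNA, what is attached to it and what comes along without it.

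The sense libraries held 10424024, 6478567 and 7594787 counts and the antisense libraries 5812874, 6292946 and 5774904. Gas5 took 32.7% to 57.1% of the counts in sense libraries and 9.71% to 14.2% in antisense libraries, and sense minus antisense gave 2.78 on the log2 scale (SE 0.286; edgeR adjusted p = 3.76e-06). Outside Gas5, the sense libraries held 4469154, 4362363 and 4092142 counts and the antisense libraries 5248670, 5399380 and 5148823. Levels below are CPM (counts scaled to a common library size) on TMM-scaled library sizes, a scaling that aligns the bulk of the genes between libraries. Genes are not ranked by level, since transcript lengths were not at hand. Neuronal markers were present in every library, with a summed level of 1088 to 1369 CPM in sense and 851 to 1088 CPM in antisense libraries over 9 of 9 tested markers. Astrocyte markers (6 of 6 tested) summed to 1294 to 1668 CPM in sense and 1119 to 1389 CPM in antisense libraries, and oligodendrocyte lineage markers (7 of 7) to 385 to 505 CPM in sense and 358 to 391 CPM in antisense libraries. Microglia markers (3 of 6 tested) summed to 9.08 to 12.02 CPM in sense and 17.6 to 21.4 CPM in antisense libraries. Vascular and fibroblast markers (4 of 5 tested) summed to 67.9 to 81.1 CPM in sense and 63.1 to 66.5 CPM in antisense libraries. These sums take in every listed marker with a row among the counts, also those too low to be tested. Fewer cells of a type, less RNA per cell and a difference in what the pulldown recovered cannot be told apart in such libraries. The part of other cell types in the values of the 8 genes was not tested.

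Positions of 3 of the 8 genes are given by a RefSeq table of assembly GRCm38.p6. Gm13056 lies on chromosome 4 from 141278439 to 141279794 and overlaps no other gene of that table. Gm35419 lies on chromosome 14 from 62119308 to 62171013, a span of 51706 bases that contains another long noncoding gene, Gm35361. Gm8489 lies on chromosome 8 from 91157886 to 91158545, a span of 660 bases, and overlaps no other gene of the table. The promoter windows of Gm13056 and Gm35419 are shown because they were the only ones of the 8 in the RefSeq promoter table, so they are the only sequence in which the genes can be set side by side. Each runs from 250 bases before the start of the gene to 50 bases into it, is written 5' to 3' on the gene's strand, and has its CCAAT or its run of 10 A in capitals.
Gm13056, chr4:141278189-141278488, plus strand: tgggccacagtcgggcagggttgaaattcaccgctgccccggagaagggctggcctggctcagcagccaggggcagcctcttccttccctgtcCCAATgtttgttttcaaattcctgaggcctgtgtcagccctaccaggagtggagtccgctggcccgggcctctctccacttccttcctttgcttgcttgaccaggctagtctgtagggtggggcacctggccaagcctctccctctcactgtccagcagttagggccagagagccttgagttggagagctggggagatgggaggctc
Gm35419, chr14:62170964-62171263, minus strand: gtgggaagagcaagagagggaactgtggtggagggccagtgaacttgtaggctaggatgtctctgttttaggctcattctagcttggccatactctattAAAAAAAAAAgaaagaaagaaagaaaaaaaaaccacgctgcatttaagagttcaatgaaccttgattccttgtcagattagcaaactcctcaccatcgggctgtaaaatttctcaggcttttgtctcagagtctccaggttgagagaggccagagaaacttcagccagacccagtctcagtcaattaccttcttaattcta
The 2 windows differ in composition. That of Gm13056 had 61.3% G or C and 5 CG dinucleotides, and that of Gm35419 had 42.7% and 2, against medians of 52.7% and 7 over 32851 promoter windows of the same length. In all, 4 motifs were searched on both strands: the TATA-box core TATAAA, the CCAAT box, the GC box GGGCGG and a run of 10 A, the last chosen after the sequence of Gm35419 had been seen. The Gm13056 window held 1 CCAAT, a motif found in 37.4% of all windows. The Gm35419 window held 1 run of 10 A, found in 4.7% of all windows. TATAAA (13.6% of all windows) and GGGCGG (35.7%) were in neither window, so none of the 4 motifs was in both.

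Gm47106 had the steadiest values of the 4 long noncoding RNAs. Its counts were 1989, 2164 and 2040 in sense replicates 1, 2 and 3 and 82, 58 and 63 in antisense replicates 1, 2 and 3. On the TMM scale these were 314, 337 and 349 CPM in sense and 10.8, 7.45 and 8.44 CPM in antisense libraries, and the lowest sense value was 29.2 times the highest antisense value. The group means were 334 ± 17.7 CPM in sense and 8.89 ± 1.71 CPM in antisense libraries (SD, n = 3 each), a log2 fold change of 5.23. Its coefficient of variation among the sense libraries was 5.31%, where counting error alone would give 2.20%.

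Gm13056 had the largest fitted log2 fold change of all 20049 tested genes, 6.13. It was counted 115, 160 and 91 times in sense replicates 1, 2 and 3, and 0, 6 and 0 times in antisense replicates 1, 2 and 3. All of its antisense reads thus lay in replicate 2. In CPM it stood at 18.2, 24.9 and 15.6 in sense libraries, a mean of 19.6 ± 4.82, and at 0, 0.771 and 0 in antisense libraries (SD, n = 3). A count of 0 allows up to 3 counts, or 0.394 and 0.402 CPM in antisense replicates 1 and 3 (a limit that covers counting error alone, as do the intervals below, since reads were not counted by molecule). The ratio of the summed counts, scaled by TMM, was 75.0 with an exact 95% interval of 34.1 to 206. Without antisense replicate 2 no antisense count was left. Against antisense replicates 1 and 3 alone, with a floor of 3 counts over both, Gm13056 was at least 98.3-fold higher in sense. That bound leaves out the only library with antisense reads and does not hold for all 6 libraries, where the ratio was 75.0.

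Gm35419 was the most uneven of the 8 among the sense libraries. Its counts in sense replicates 1, 2 and 3 were 89, 238 and 88, and those in antisense replicates 1, 2 and 3 were 0, 32 and 9. Replicate 2 was the highest of either group, with 37.1 CPM in sense, where replicates 1 and 3 had 14.1 and 15.1 CPM, and with 4.11 CPM in antisense, where replicates 1 and 3 had 0 and 1.21 CPM. The groups did not overlap, with the lowest sense value 3.42 times the highest antisense value. The means were 22.1 ± 13.0 CPM in sense and 1.77 ± 2.11 CPM in antisense libraries (SD, n = 3 each), a log2 fold change of 3.62. Spread among the sense libraries was 58.9% of the mean, 6.92 times what counting error alone would give. The log2 fold change was 3.01 without sense replicate 2, 3.04 without antisense replicate 1 and 5.18 without antisense replicate 2. In the authors' deposited table its log2 fold change was 3.63 with a standard error of 1.44, the widest of the 8.

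Gm50401 had few reads. It was counted 26, 24 and 15 times in sense replicates 1, 2 and 3 and 1, 1 and 0 times in antisense replicates 1, 2 and 3, or 4.11, 3.74 and 2.57 CPM in sense and 0.131, 0.128 and 0 CPM in antisense libraries. Every sense library lay above every antisense library. The scaled ratio of the summed counts was 39.98, with an exact 95% interval of 10.6 to 337. Its spread among the sense libraries, 23.2%, was close to the 21.5% that counting error alone would give.

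**Figure D1:**
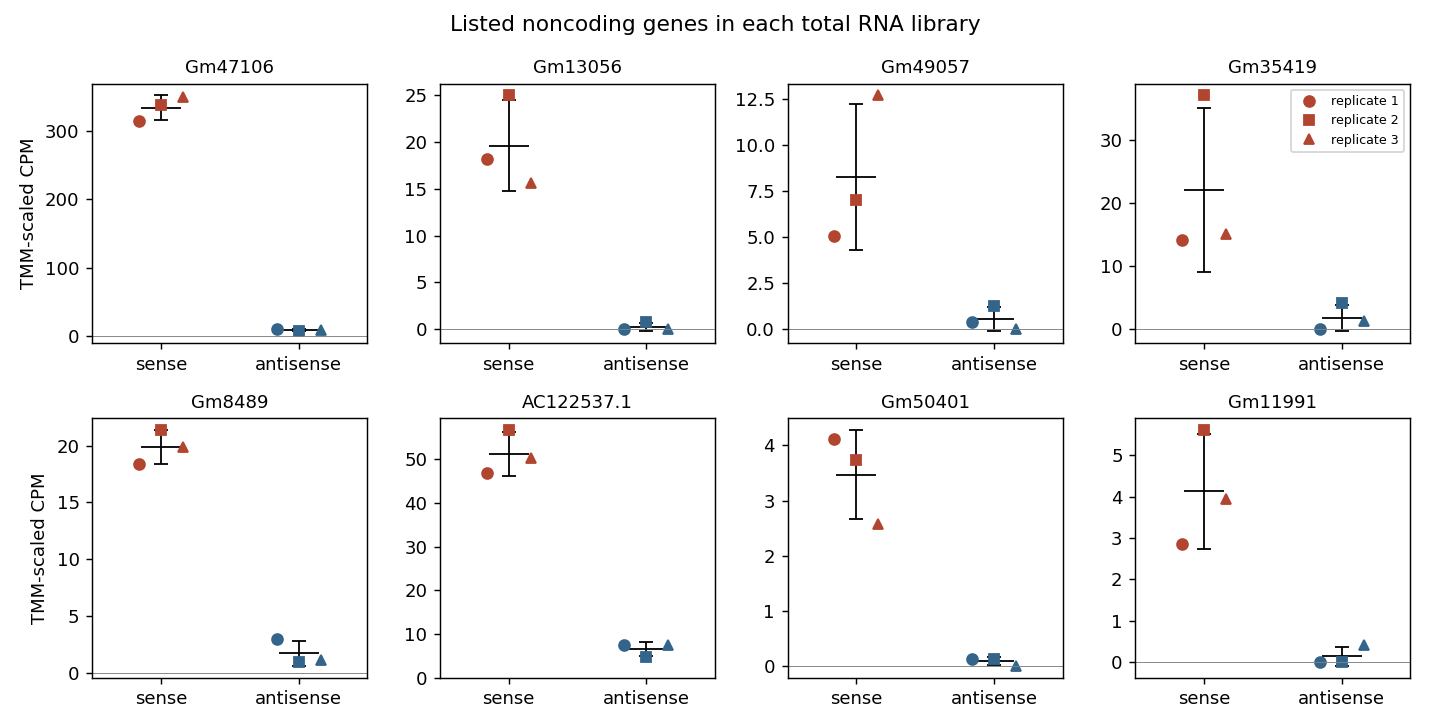
Level of each of the 8 genes in TMM-scaled CPM (vertical axis, its own range in each panel) in the 3 sense libraries (red, left) and the 3 antisense libraries (blue, right); symbols give the replicate number, the bar the mean and the whiskers 1 SD (n = 3). The groups overlap in no panel, and relative to the mean the sense values spread least for Gm47106 (314 to 349 CPM, 5.31%) and most for Gm35419 (14.1 to 37.1 CPM, 58.9%).

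Among the 3 processed pseudogenes, Gm8489 was the most even. Its counts were 116, 137 and 116 in sense replicates 1, 2 and 3 and 23, 8 and 9 in antisense replicates 1, 2 and 3. In CPM these were 18.3, 21.3 and 19.9 in sense and 3.02, 1.03 and 1.21 in antisense libraries, so that antisense replicate 1 stood above the other two antisense libraries. The means were 19.9 ± 1.503 CPM in sense and 1.75 ± 1.10 CPM in antisense libraries (SD, n = 3 each), a log2 fold change of 3.49. It was 4.14 without antisense replicate 1. Spread among the sense libraries, 7.57%, was below the 9.02% that counting error alone would give.

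Gm49057 varied more. It had 32, 45 and 74 counts in sense replicates 1, 2 and 3 and 3, 10 and 0 in antisense replicates 1, 2 and 3, or 5.06, 7.01 and 12.7 CPM in sense and 0.394, 1.28 and 0 CPM in antisense libraries. Sense replicate 3 was the highest library and the only one in which Gm49057 passed 10 CPM. The means were 8.25 ± 3.96 CPM in sense and 0.560 ± 0.658 CPM in antisense libraries (SD, n = 3 each), a log2 fold change of 3.81. Without antisense replicate 2, which held 10 of its 13 antisense counts, the log2 fold change was 5.25.

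Gm11991 had 18, 36 and 23 counts in sense replicates 1, 2 and 3, and 0, 0 and 3 in antisense replicates 1, 2 and 3. It stood at 2.85, 5.61 and 3.94 CPM in sense and at 0, 0 and 0.402 CPM in antisense libraries. All of its antisense reads lay in replicate 3. The scaled ratio of the summed counts was 31.6, with an exact 95% interval of 10.41 to 156. Against antisense replicates 1 and 2 alone, with a floor of 3 counts over both, it was at least 21.2-fold higher in sense. That bound leaves out the only library with antisense reads and does not hold for all 6 libraries.

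AC122537.1, the misc_RNA, had the smallest log2 fold change of the 8, 2.96. Its counts were 296, 364 and 293 in sense replicates 1, 2 and 3 and 57, 37 and 56 in antisense replicates 1, 2 and 3. They came to 46.8, 56.7 and 50.2 CPM in sense, a mean of 51.2 ± 5.04, and to 7.49, 4.75 and 7.50 CPM in antisense libraries, a mean of 6.58 ± 1.59 (SD, n = 3 each). The lowest sense value was 6.24 times the highest antisense value. AC122537.1 kept a clear antisense level, and its log2 fold change ran only from 2.78 to 3.07 when 1 library was left out.

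**Figure D2:**
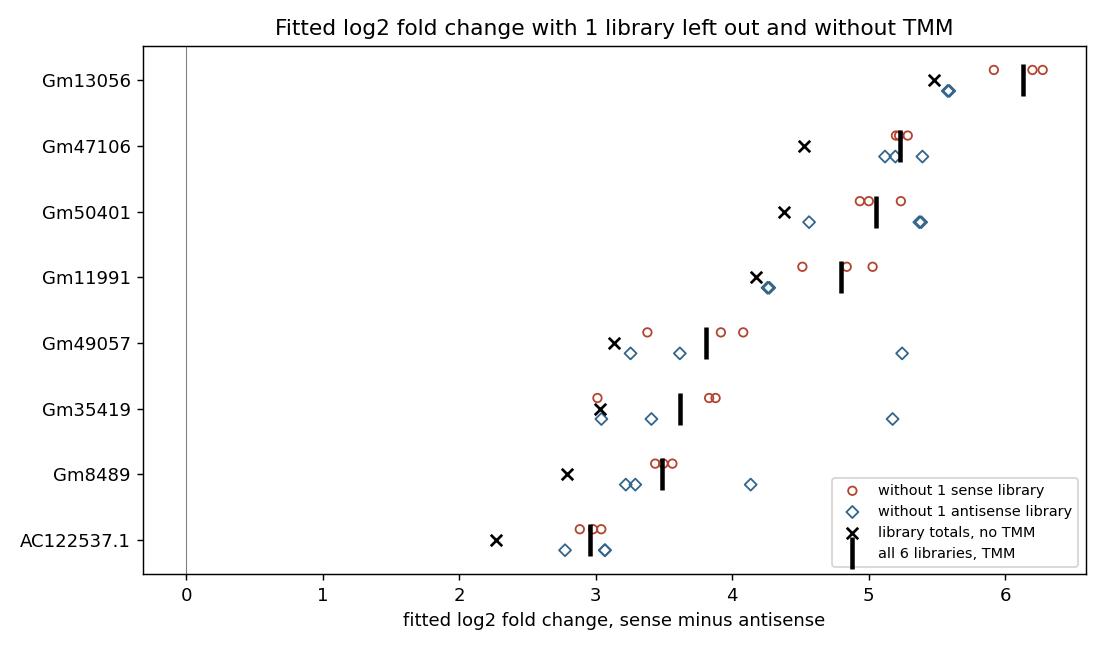
Fitted log2 fold change, sense minus antisense (horizontal axis), of each of the 8 genes from all 6 libraries (black bar), with 1 sense (red circles) or 1 antisense library (blue diamonds) left out, and on library totals without TMM (crosses). All values lie above 0; those of Gm13056 without antisense replicate 2 and of Gm11991 without antisense replicate 3, where no antisense count was left, are not drawn.

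The sense libraries of all 8 genes lay above all antisense libraries, which held for 13.2% of the tested genes. That is what the genes were listed for, and nothing is read from it. Higher in sense by edgeR's quasi-likelihood test were 873 of 20049 tested genes (4.35%), and 3658 (18.2%) were lower. On library totals, which include Gas5, 62 were higher and 12804 lower, and the median log2 fold change of all tested genes was -0.70 in place of 0.01 on the TMM scale. On those totals the log2 fold changes of the 8 genes ran from 2.27 for AC122537.1 to 5.48 for Gm13056. With Gas5 left out of the table and no TMM, a choice made after seeing the data, they ran from 2.95 for AC122537.1 to 6.12 for Gm13056.

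The 8 were listed for being higher in sense, so their own direction is no result, and their classes are given as background. Within those classes, higher in sense was the rarer direction. Among genes that the authors' deposited table classes as lncRNA, 109 of 3548 tested (3.07%) were higher in sense and 1620 (45.7%) lower, with a median log2 fold change of -0.64. Among processed pseudogenes of that table, 22 of 949 (2.32%) were higher and 462 (48.7%) lower, with a median of -0.81. Of the 24 tested genes that the authors' deposited table classes as misc_RNA, 3 were higher and 14 lower. Genes named Gm with a number, as 7 of the 8 are, were higher in 107 of 3869 cases (2.77%) and lower in 1763 (45.6%). A list of 18 noncoding RNAs abundant in neurons, such as Meg3 and Malat1, had 17 tested members, of which 2 were higher and none lower. The median log2 fold change of those 17 was 0.14, within a range of -0.49 to 0.36. The 8 genes, chosen for their high values, ran from 2.96 to 6.13 with a median of 4.30.

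**Figure D3:**
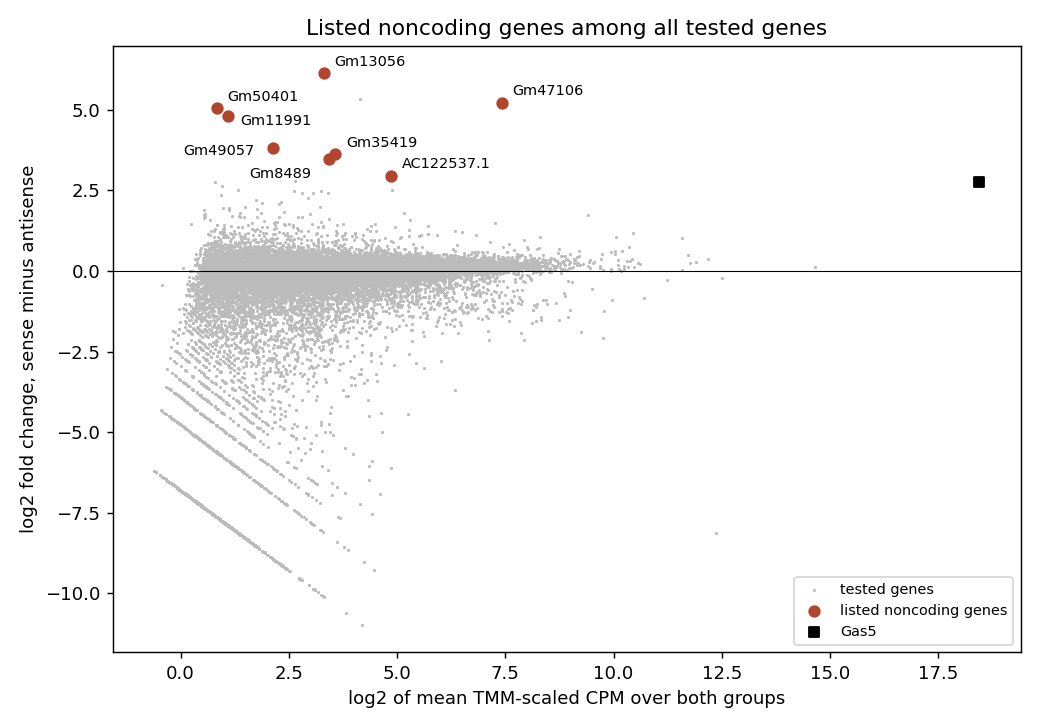
Log2 fold change, sense minus antisense (vertical axis), against the log2 of the mean level in TMM-scaled CPM over both groups (horizontal axis) for the 20049 tested genes (grey), the 8 listed genes (red) and Gas5 (black square). The 8 genes lie between 2.96 and 6.13, at the upper edge of all tested genes; the diagonal stripes at the lower left are genes with no or few sense counts, whose fitted values depend on the prior count of the fit.

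A total of 10 tested genes (0.0499%) had a log2 fold change at least that of AC122537.1, and 8 of them are the listed genes. In other settings, genes were counted against the lowest listed gene of that setting. They numbered 27 without antisense replicate 1, where the lowest was Gm35419 (3.04) in place of AC122537.1 (3.07). Against AC122537.1, they numbered 27 without antisense replicate 2, 24 without antisense replicate 3 and 325 with no filter on low counts. With all 6 libraries and the main filter, the genes among the 10 that are not listed are both protein-coding. Pcdhga10, a protocadherin gene whose terminal exons are common to several genes of the same cluster, had 36.8, 31.6 and 34.9 CPM in sense and 2.24, 0 and 0.268 CPM in antisense replicates 1, 2 and 3. Olfr769, an odorant receptor gene, had 41.1, 60.8 and 44.7 CPM in sense and 2.24, 3.72 and 3.75 CPM in antisense replicates 1, 2 and 3. Just outside the range of the 8 came Fcgr2b, which encodes an inhibitory receptor for antibodies, at 2.79, then Gas5 at 2.78 and Trdc, a T cell receptor constant gene, at 2.76. Fcgr2b averaged 10.98 ± 3.65 CPM in sense and 1.57 ± 0.373 CPM in antisense libraries, and Trdc 3.06 ± 0.500 and 0.440 ± 0.332 CPM in sense and antisense libraries (SD, n = 3 each).

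Likeness of pattern was measured over the 6 libraries as the distance between profiles of log2 CPM (prior count of 2), each centred on its own mean, where 0 would be the same profile. It describes the same libraries that chose the 8 genes, and the partners named first are genes outside the 8. Of these, AC122537.1 had the closest, the long noncoding RNA Gm13632 at a distance of 0.78 and Cbln3, which encodes a secreted protein of cerebellar synapses, at 0.92. Outside the 8, Gm8489 was nearest to the processed pseudogene Gm48850 (1.23) and to Gm13632 (1.30). Olfr769 was the nearest gene outside the 8 to Gm13056 (2.43), Gm35419 (2.42) and Gm11991 (1.02), and the second nearest to Gm47106 (1.97) and Gm50401 (1.21). Pcdhga10 was the nearest outside the 8 to Gm47106 (1.96), the vomeronasal receptor gene Vmn1r47 to Gm50401 (1.19) and the long noncoding RNA 4930431P03Rik to Gm49057 (1.74). Of the remaining partners in second place, 4930431P03Rik lay 3.35 from Gm13056 and 2.45 from Gm35419, Vmn1r47 lay 2.001 from Gm49057, and Gm15708, a long noncoding RNA, lay 1.62 from Gm11991. Within the list, the closest pairs were Gm8489 and AC122537.1 (1.02), Gm50401 and AC122537.1 (1.08), and Gm50401 and Gm8489 (1.08), and the farthest pair was Gm35419 and Gm8489 (3.97). The prior count shrinks the profiles of genes with few counts, such as Gm50401 and Gm11991, so their distances depend on it. The fitted log2 fold change of Gm50401 was 5.05, against 2.96 for AC122537.1 and 3.49 for Gm8489.

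The order of the 3 sense libraries is given here for Gas5 and for the 8 genes. Gas5 was highest in sense replicate 1 and lowest in sense replicate 2, with 941554, 329730 and 599911 CPM in replicates 1, 2 and 3 of the sense group. Of the 8 genes, 6 were lowest in sense replicate 1 and 5 were highest in sense replicate 2, and none was lowest in replicate 2. None had the order of Gas5, which 19.2% of all tested genes had, and among only 8 genes nothing particular to them is read from that. Sense replicate 1 was lowest for 31.5% of all tested genes and sense replicate 2 highest for 33.8%. With counts outside Gas5 as the denominator the counts were again 6 and 5 of 8, beside 35.8% and 40.5% of all tested genes. On library totals they were 7 and 7 of 8, beside 77.8% and 80.3% of all tested genes. On the TMM scale Gm50401 alone was highest in sense replicate 1, and Gm50401 and Gm13056 were lowest in sense replicate 3. With 3 libraries, this order is a description without a test. On counts outside Gas5, Gm47106 stood at 445, 496 and 499 CPM in sense and at 15.6, 10.7 and 12.2 CPM in antisense replicates 1, 2 and 3, so its near-equal counts in sense went with near-equal totals outside Gas5.

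**Figure D4:**
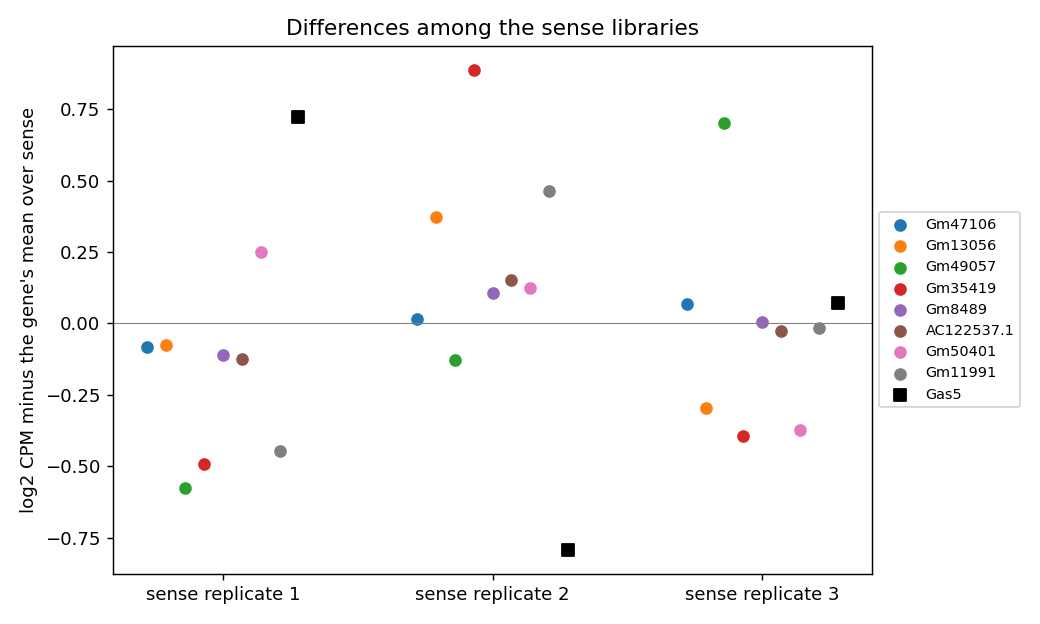
Log2 CPM of each of the 8 genes (coloured points) and of Gas5 (black squares) in sense replicates 1, 2 and 3 minus that gene's mean over the sense libraries (vertical axis, log2). Gas5 is at 0.72 in replicate 1 and -0.79 in replicate 2, while Gm35419 is at -0.49 and 0.89 there and Gm47106 stays between -0.08 and 0.07 in all 3.

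Neighbouring genes, whose values did not choose the list, were tested in the fit over all genes. Gm13056 lies between Arhgef19, which ends 20523 bases before it, and Epha2, which encodes an ephrin receptor and begins 21426 bases after it. Arhgef19 had 13.9, 14.2 and 16.4 CPM in sense and 13.5, 13.2 and 15.3 CPM in antisense replicates 1, 2 and 3, with overlapping groups and a log2 difference of 0.08 (SE 0.151; edgeR adjusted p = 0.758). Epha2 had 17.4, 22.1 and 15.8 CPM in sense and 15.3, 17.1 and 16.3 CPM in antisense replicates 1, 2 and 3, again with overlap, and a log2 difference of 0.19 (SE 0.153; edgeR adjusted p = 0.44). Neither passed the test on the TMM scale. On library totals both turned negative, Arhgef19 with -0.63 (edgeR adjusted p = 0.0418) and Epha2 with -0.50 (edgeR adjusted p = 0.0877). All tested genes had a median of -0.70 on that scale, and 12804 of 20049 were called lower, so nothing particular to these 2 genes is read from it.

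Gm8489 lies 22391 bases after Aktip, which encodes a protein that binds the kinase AKT. Aktip stood at 54.1, 55.5 and 51.0 CPM in sense and 56.3, 54.6 and 58.1 CPM in antisense replicates 1, 2 and 3, a log2 difference of -0.07 (SE 0.0917; edgeR adjusted p = 0.634). The groups overlapped, and Aktip did not pass on the TMM scale. On library totals it passed as lower in sense (-0.78; edgeR adjusted p = 0.00437). So did most genes on that scale, 12804 of 20049, where the median log2 fold change was -0.70. On the other side, 52037 bases away, the long noncoding gene Gm36243 had 0, 1 and 0 counts in sense and 12, 5 and 12 in antisense replicates 1, 2 and 3, and was too low to be tested. For Gm35419, the flanking gene Dleu7, 105215 bases away, had 5, 3 and 2 counts in sense and 5, 4 and 3 in antisense replicates 1, 2 and 3 and was not tested, and the overlapping Gm35361 and the flanking Gm35307 have no row under those names in the table used. None of the 3 tested neighbours was called higher in sense on either scale. Of all 20049 tested genes, 4.35% were called higher on the TMM scale and 62 genes on library totals. With so few called, 3 genes cannot set the neighbours apart from other genes.

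The values of the 8 genes rest on estimated counts, which are not whole where a read was divided among transcripts. Of their 41 values above 0, 36 (87.8%) were more than 0.0005 from a whole number, against 63.1% of all values above 0 in the table. All 6 values of Gm47106, Gm8489 and AC122537.1 were of this kind, as were all 5 values above 0 of Gm49057 and of Gm35419. So were 3 of the 4 values above 0 of Gm13056 and of Gm11991, and 2 of the 5 of Gm50401. The share over the whole table was not matched to the 8 genes by level. With which other genes the reads were divided was not tested, and the levels of the 3 pseudogenes in particular are uncertain where near-identical copies exist. Whether counting used strand is not given in the sources used here, so reads from opposite strands of one place may not be told apart.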

How the data were processed

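For total RNA the authors deposited estimated counts per gene symbol, not normalised, and a comparison table. That deposited table has a mean signal over libraries, a log2 fold change, its standard error, a score (the test statistic) and p-values, adjusted and not. The submitters' processing notes name Salmon, DESeq and GRCm38, without versions. Library kit, index, settings and the use of strand: not given in the sources used here.

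Estimated counts were rounded. Rows were kept by filterByExpr (minimum count 10; 20049 of 49489), scaled by TMM, and sense minus antisense was fitted with edgeR 4.0.16 (R 4.3.3; quasi-likelihood F test, two-sided, Benjamini-Hochberg, false discovery rate 0.05). The SE is the log2 fold change over the square root of F. Counting intervals are exact, conditional on the sum of both counts. Alternatives were DESeq2 1.42.0, library totals, Gas5 left out, other filters, a replicate block and each library left out. The fit was tested on simulated counts for the 20049 genes of this comparison, all drawn with the median dispersion (spread beyond counting error). It found 20 of 50 changes of 1.5-fold, 44 of 50 of 2-fold and 50 of 50 of 4-fold, with 6 false calls. Recovery for genes with a wider spread was not tested.

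The 8 genes and the lists were chosen with earlier results of these data known. Other genes named are Gas5, the RefSeq neighbours, the 2 nearest in pattern to each listed gene and the 5 with the next largest log2 fold changes. Meg3 and Malat1 are named as list members only. The small RNA table was not used, because no table at hand ties its transcript rows to the 8 genes, so the planned small RNA comparison was not run.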

Additional observations from a re-analysis of the deposited data

How the results depend on the processing

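All log2 fold changes of the 8 genes were positive under every alternative that could be run, a direction fixed by how they were chosen. At a minimum count of 50 only 5 of the 8 were tested. The numbers of genes higher and lower in sense were 873 and 3658, against 62 and 12804 on library totals and 402 and 1795 at a minimum count of 50, where fewer genes were tested. Leaving out 1 library gave 492 to 1100 higher genes, and 3392 to 3987 lower genes. The higher genes numbered 571 when antisense replicate 1 was left out, 534 when sense replicate 1 was, and 492 when sense replicate 3 was. The log2 fold change of Gas5 ran from 2.37 to 3.08 with 1 library left out and was 1.96 on library totals. On library totals, where the median log2 fold change of all tested genes was -0.70, Arhgef19 (-0.63) and Epha2 (-0.50) changed sign. The replicate block gave 695 higher and 3428 lower genes and a log2 fold change of 2.68 for Gas5. Same-numbered libraries deviated with correlations of 0.051, -0.059 and -0.009 in replicates 1, 2 and 3, and 0 of 3 sense libraries correlated best with the antisense library of their own number, so the numbers were not taken as pairs. DESeq2 gave 648 higher and 3316 lower genes. The alternatives planned for small RNA were not run. Depth limits Gm50401 and Gm11991 most, with 2 and 3 antisense counts in all.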
